A study of Mus musculus with 6 samples.

Results

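The potassium channel genes are the genes whose symbol starts with Kcn, together with Abcc8 and Abcc9, which encode the sulfonylurea receptors of the ATP-sensitive potassium channels. They were found by symbol among the probe sets that the platform annotation gives to a single gene, which yielded 172 of 34945 probe sets and 86 of 18193 genes. Of these 86, 83 are channel subunits and 3 are noncoding transcripts named after a channel gene (Kcnq1ot1, Kcnmb4os1 and Kcnmb4os2). Where a gene had more than 1 probe set, the one with the highest mean signal stood for it. The mean log2 signal was 7 or more for 32 genes, which are described first, and under 7 for 54. Kcne1 (7.05) and Kcna1 (7.002) lay just inside that limit, and Kcnd1 (6.94) and Kcnk7 (6.89) just outside it. A further 13 protein-coding potassium channel genes of the RefSeq gene table were not analysed here.

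Potassium channels carry the outward currents that repolarise the cardiac action potential and the inward-rectifying currents that hold the resting potential of ventricular myocytes. A voltage-gated channel is built of several pore subunits, and small accessory proteins set its gating, its current size and its place in the cell. Inward rectifiers conduct best near and below the resting potential, the ATP-sensitive ones join pore subunits to sulfonylurea receptors and so follow the metabolic state, and 2-pore channels carry background currents.

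RNA of ventricular tissue from mice aged 8 weeks was hybridised to short-oligonucleotide arrays. The wild-type group had 3 arrays, and the caAkt group had 3 arrays from mice whose transgene, described as cardiac-specific, holds a constitutively activated Akt. The promoter of the transgene and the strain and sex of the mice were not given in the labels. Nor do the labels say that each array came from its own heart, so the spread that the p-values measure may be technical. All values are RMA signals on the log2 scale, and a difference is a log2 fold change, caAkt minus wild-type, with its moderated SE. For the other probe sets of a gene, the adjusted p comes from a second fit with every probe set as a row, called the probe-set fit below. A gene is said to have risen or fallen, or is called, where limma's adjusted p, taken over all 18193 genes, was under 0.05.

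Array medians lay between 6.77 and 6.80. Across probe sets, the correlation was 0.995 to 0.997 between arrays of a genotype and 0.983 to 0.985 between genotypes. Akt1 itself differed by 5.19 ± 0.11. Ventricular myocyte markers had list means of 14.30 to 14.39 on the wild-type arrays and 14.11 to 14.14 on the caAkt arrays, with 3 of 7 lower and 0 higher. Of the markers of other cells, 8 of 8 macrophage markers rose (list means 9.04 to 9.23 against 10.27 to 10.64), as did 7 of 8 fibroblast markers (11.31 to 11.56 against 12.69 to 12.84). Of the endothelial markers 3 of 7 fell (10.14 to 10.21 against 9.86 to 10.01). The share called was 42.9% in both the ventricular and the endothelial list, near the 39.8% of all genes with a mean of 7 or more. Of 8 smooth muscle and pericyte markers 2 rose (9.92 to 10.07 against 9.99 to 10.27), of 4 nodal markers 2 rose (6.36 to 6.56 against 6.64 to 6.72), and of 5 Schwann and neuronal markers 1, Uchl1, rose (by 3.80; the other 4 differed by -0.15 to 0.06, and the list means were 6.66 to 6.70 against 7.35 to 7.41). None of the 4 T cell markers was called (6.36 to 6.60 against 6.39 to 6.50). In these bulk samples, fewer cells of a type and less RNA per cell cannot be told apart, and the part of cell makeup in the differences that follow was not tested.

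Of the 86 potassium channel genes, 20 were called (23.3%), 6 higher and 14 lower in caAkt hearts. The corresponding share of all genes was 28.5%, with 16.1% higher and 12.4% lower. The share of members called lower was 16.3%. Among the 32 with a mean of 7 or more, 14 were called (43.8%), 5 higher and 9 lower, beside 39.8% of all genes this bright. In 4 of these 14 the mean of 1 group lay under 7: Kcnj14, Kcne1 and Kcnk2 reached the limit through their caAkt signals and Kcna1 through its wild-type signals, so the change itself put them among the brighter members. Among the 54 dimmer ones, 6 were called (11.1%), beside 11.4% of all genes under 7. The groups did not overlap for 35 of the 86 genes, and for 42.4% of all genes. The median log2 fold change of the members was -0.09, with 63 of 86 below 0. That of all genes was -0.04, with 10442 of 18193 below 0. Under a mean of 7, 40 of 54 members and 5137 of 7244 genes were below 0. At 7 or more, 23 of 32 members and 5305 of 10949 genes were below 0. A called change of at least 2-fold was seen in 4 members (4.65%) and in 3.44% of all genes.

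The counts depend on scaling and on single arrays. With median centring of the arrays, 5 members were called higher and 24 lower (33.7% called and 27.9% lower, beside 31.6% and 17.5% of all genes), and the split over all genes changed from 2929 higher and 2254 lower to 2557 and 3191. After a repeated quantile normalization the split of the members was 6 and 18 (27.9% called and 20.9% lower, beside 29.9% and 15.2% of all genes). Without caAkt replicate 1 or caAkt replicate 3, 8 and 9 members were called lower, beside 1744 and 1835 of all genes. With any 1 array left out, 2369 to 2605 of all genes were called higher and 1615 to 2222 lower. Of the brighter members, 3 were called higher without wild-type replicate 1, caAkt replicate 1 or caAkt replicate 2.

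**Figure D1:**
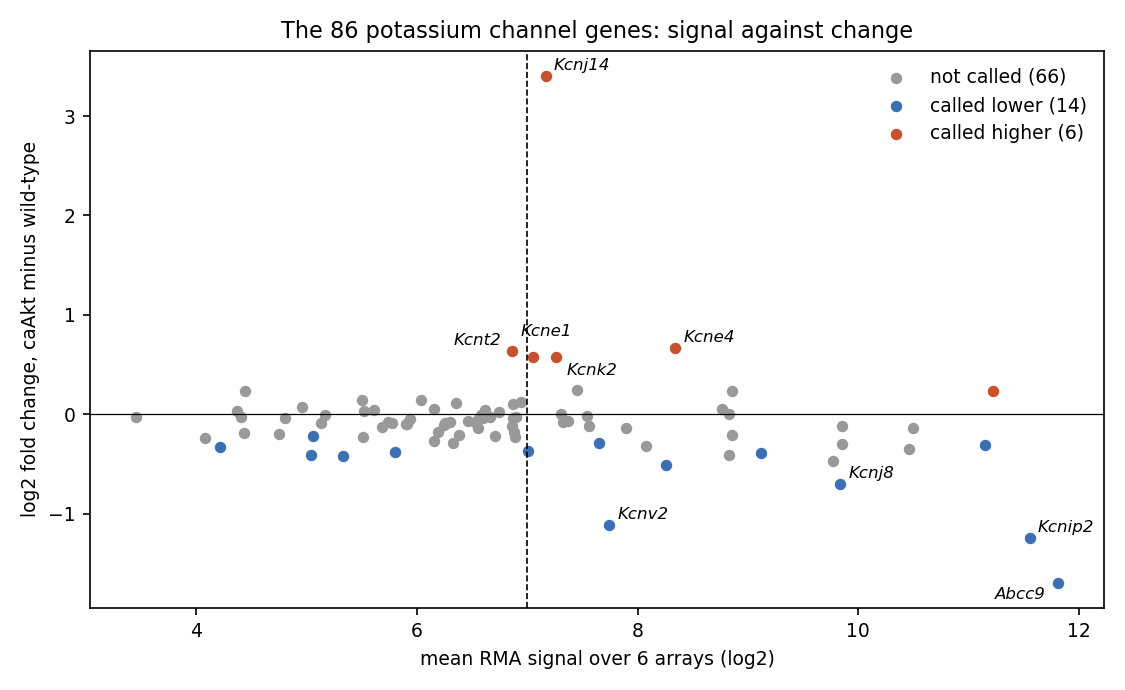
Log2 fold change (caAkt minus wild-type, y axis) against the mean RMA signal over 6 arrays (log2, x axis) for each of the 86 potassium channel genes, 1 point per gene; blue and red mark called falls and rises, and the dashed line marks a mean of 7. Kcnj14 stands alone at 3.40, and the largest falls, those of Abcc9, Kcnip2 and Kcnv2, all lie to the right of the line.

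The inward rectifiers and sulfonylurea receptors held both the largest rise and the largest fall. Of 17 genes, 1 rose and 5 fell (35.3% called, beside 28.5% of all genes). The median log2 fold change was -0.22, with 14 of 17 below 0. Without caAkt replicate 3, 3 of the 17 were called. Abcc9, the regulatory subunit of the ATP-sensitive channels of heart and vascular muscle, fell 3.23-fold. Kcnj8, the pore subunit that pairs with it in vascular and other muscle cells, lies beside it in the genome and fell as well. Kcnj14, an inward rectifier of the same subfamily as the classical resting-current channels, rose strongly.

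The promoters of the adjacent genes Abcc9 and Kcnj8, which fell together, are shown as the 250 bases before the RefSeq start (GRCm38.p6), 5′ to 3′ in the direction of the gene, with no capitals because none of the motifs searched for was found. They are those at chr6:142702275-142702524 and chr6:142571615-142571864, both on the minus strand.
Abcc9: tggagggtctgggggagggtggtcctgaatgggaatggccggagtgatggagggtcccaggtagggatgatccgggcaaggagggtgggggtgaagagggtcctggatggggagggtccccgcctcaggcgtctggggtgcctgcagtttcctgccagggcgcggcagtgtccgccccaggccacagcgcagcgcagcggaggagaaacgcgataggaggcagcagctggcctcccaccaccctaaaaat
Kcnj8: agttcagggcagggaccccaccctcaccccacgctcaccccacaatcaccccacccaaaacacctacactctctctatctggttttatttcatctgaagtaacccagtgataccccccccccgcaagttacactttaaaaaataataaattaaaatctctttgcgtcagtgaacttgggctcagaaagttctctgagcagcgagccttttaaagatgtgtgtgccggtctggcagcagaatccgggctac

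Abcc9 had signals of 12.72, 12.71 and 12.52 on the wild-type arrays and 10.87, 11.02 and 11.00 on the caAkt arrays. The lowest wild-type array thus stood more than 1.5 log2 units above the highest caAkt array. The log2 fold change was -1.69 ± 0.08 (adjusted p = 1.95e-06), a 3.23-fold fall. All 3 probe sets of Abcc9 were called lower, the others with differences of -1.86 and -2.15. Kcnj8 was at 10.29, 10.15 and 10.12 in wild-type and 9.66, 9.44 and 9.35 in caAkt hearts. Every caAkt value lay below every wild-type value, and the difference was -0.70 ± 0.09 (adjusted p = 0.000539). Of the genes that flank the pair, Ldhb, a subunit of lactate dehydrogenase next to Kcnj8, fell by 0.53, and Cmas, next to Abcc9, rose by 0.38. Of the smooth muscle and pericyte markers, whose cells also make ATP-sensitive channels, Rgs5 differed by -0.20 ± 0.09 (adjusted p = 0.124), Pdgfrb by 0.24 ± 0.10 (0.111) and Cspg4 by 0.85 ± 0.07 (4.02e-05). Of the rest of that list, Tagln rose by 0.46 ± 0.14 (adjusted p = 0.0320). Cnn1 (0.26), Acta2 (0.03), Notch3 (-0.15) and Myh11 (-0.16) were not called.

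The other pair of ATP-sensitive channel genes is Kcnj11, the pore subunit of the ventricular sarcolemmal channel, and Abcc8, its partner in pancreas and atrium. They are neighbours too. Abcc8 stood at 9.19, 9.30 and 9.44 against 8.93, 9.07 and 8.79, with no overlap and a difference of -0.38 ± 0.10 (adjusted p = 0.0150). Its second probe set was called as well, with a difference of -0.40. Kcnj11 stood at 10.43, 10.61 and 10.86 against 10.32, 10.42 and 10.13. These groups did not overlap either, but the difference of -0.34 ± 0.12 missed the threshold (adjusted p = 0.0572; 95% interval -0.61 to -0.08). Without caAkt replicate 3 the adjusted p of Abcc8 was 0.0580 (difference -0.31). Kcnj11 was called on leaving out wild-type replicate 1 (-0.44, adjusted p = 0.0252), with trend and robust eBayes settings (0.0485), repeated quantile normalization (0.0469), median centring (0.0292) and array weights (0.0338).

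Kcnj14, with a single probe set, had signals of 5.30, 5.53 and 5.56 in wild-type and 8.96, 8.84 and 8.80 in caAkt hearts. All caAkt values lay more than 3 log2 units above all wild-type values. The log2 fold change was 3.40 ± 0.09 (adjusted p = 1.10e-07), or 10.6-fold between the measured signals. Its wild-type signals were dim: they lay below 6.05, the median of 10 genes of other organs (retina, testis, lens and the like) that serve as a mark of dim signal. The measured fold is therefore not an exact ratio of amounts. The caAkt mean of 8.87 lay above that mark and above the highest of the same genes of other organs (7.70). Its neighbours in the genome, Cyth2 (0.20, adjusted p = 0.0686) and Grwd1 (0.02, adjusted p = 0.858), were not called.

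Of the other strong inward rectifiers named here, Kcnj12 was not called and Kcnj2 fell. Kcnj12 had signals of 7.35, 7.13 and 7.43 in wild-type and 7.39, 7.17 and 7.36 in caAkt hearts, groups that overlap almost completely (95% interval of the difference -0.22 to 0.22; adjusted p = 1). Kcnj2, the main subunit of the ventricular resting current, was measured at 5.56, 5.41 and 5.65 against 5.36, 5.04 and 4.97, values that also lay below the mark of dim signal. Its difference was -0.42 ± 0.11 (adjusted p = 0.0206). That call was lost when replicate 1 or 3 of the wild-type or replicate 2 or 3 of the caAkt group was left out (differences of -0.41, -0.36, -0.37 and -0.34, adjusted p of 0.0595 to 0.0816).

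Kcnj3 and Kcnj5 form the acetylcholine-activated channel, which is best known in atrial and nodal cells. Kcnj3 stood at 8.73, 8.21 and 8.60 in wild-type and 7.88, 8.17 and 7.96 in caAkt hearts. The groups were separated by a narrow gap, between wild-type replicate 2 and caAkt replicate 2, and the difference was -0.51 ± 0.13 (adjusted p = 0.0187). Another pair of its probe sets showed larger falls (-1.05 and -1.11, both called in the probe-set fit), and its dimmest was not called (-0.22). The call of the brightest probe set was lost when replicate 1 or 3 of either group was left out, with differences of -0.40, -0.47, -0.45 and -0.49 and adjusted p of 0.0613 to 0.0778, and with array weights. Kcnj5 stood at 9.03, 8.84 and 9.23 against 8.76, 8.79 and 8.32. Its groups did not overlap and its difference was -0.41 ± 0.14, short of the threshold (adjusted p = 0.0575) but called without wild-type replicate 2 (-0.50, adjusted p = 0.0468), with trend and robust eBayes settings (0.0490), repeated quantile normalization (0.0223) and median centring (0.0320).

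**Figure D2:**
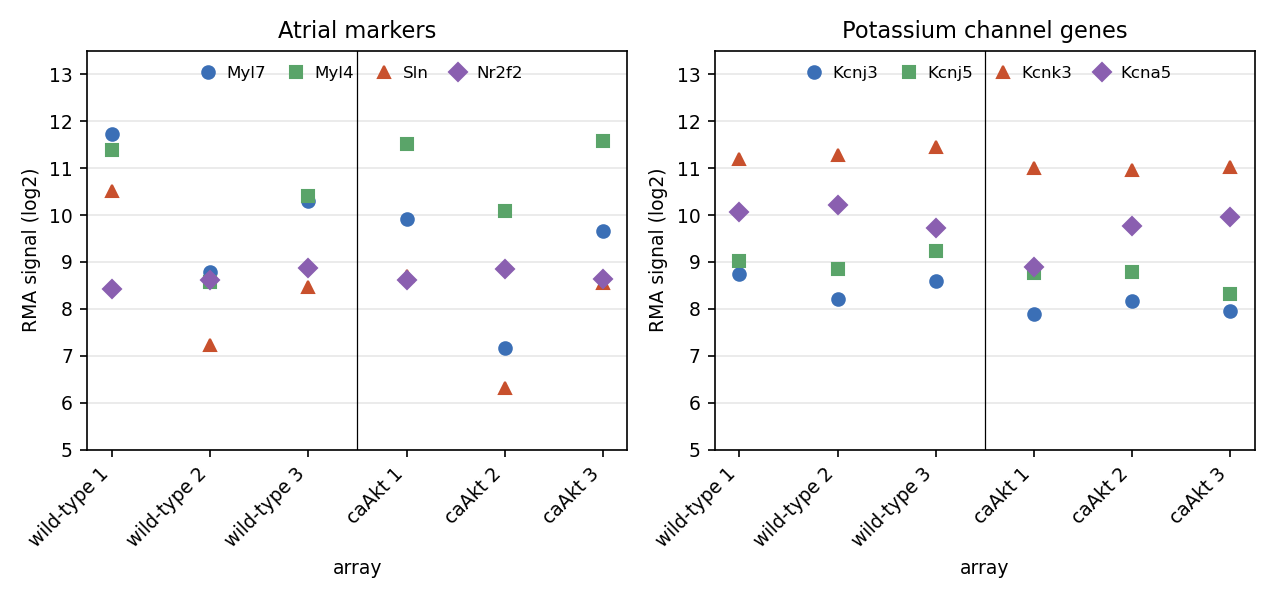
RMA signal (log2, y axis) on each of the 6 arrays (x axis) of 4 atrial markers (left) and of 4 potassium channel genes also expressed in atria (right), 1 point per gene and array. Myl7, Myl4 and Sln are lowest on replicate 2 of each genotype. Kcnj3 is at 8.73, 8.21 and 8.60 on the wild-type arrays and 7.88, 8.17 and 7.96 on the caAkt arrays.

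The signals of some atrial markers spread widely within each genotype. Myl7, the atrial myosin light chain, was at 11.73, 8.79 and 10.31 on the wild-type arrays and 9.92, 7.16 and 9.67 on the caAkt arrays. Sln, the atrial calcium pump regulator sarcolipin, was at 10.50, 7.24 and 8.46 in wild-type and 8.70, 6.32 and 8.54 in caAkt hearts. Myl4, the atrial essential light chain, was at 11.38, 8.58 and 10.41 in wild-type and 11.50, 10.08 and 11.59 in caAkt hearts. These 3 markers were lowest on replicate 2 of each genotype, and the differences were -1.36 for Myl7, -0.88 for Sln, 0.93 for Myl4 and 0.07 for Nr2f2, so that they did not share a direction. By the adjusted p, 0 of the 4 atrial markers were called (list means 8.30 to 10.51 against 8.10 to 9.68). The part of atrial tissue in the values of Kcnj3, Kcnj5, Kcnk3 and Kcna5 was not tested.

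Among the 31 voltage-gated pore subunits, 1 rose and 5 fell (19.4% called, beside 28.5% of all genes). Their median was -0.12, with 25 of 31 below 0. Of the 11 with a mean of 7 or more, 1 rose and 2 fell, whereas 39.8% of all genes this bright were called. With median centring 10 of the 31 were called, beside 31.6% of all genes. Array weights also gave 10, and called 3231 of all 18193 genes higher and 2967 lower. Without wild-type replicate 1 or 2, 2 were called, and 3 without caAkt replicate 1. Over all genes these fits without 1 array called 2600, 2369 and 2418 higher and 1789, 1615 and 1744 lower. The largest fall was that of Kcnv2, a silent subunit that forms no channel alone and alters the channels it joins. The pore subunits of the main repolarising currents, Kcnd2, Kcnh2 and Kcnq1, and Kcna5 were not called.

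Kcnv2 had signals of 8.55, 8.39 and 7.96 in wild-type and 6.88, 7.32 and 7.35 in caAkt hearts. All caAkt values lay below all wild-type values, and the difference was -1.11 ± 0.17 (adjusted p = 0.00107), a 2.16-fold fall. Its neighbour Vldlr, a lipoprotein receptor, fell by 0.64, and its neighbour Pum3 was not called (0.20). Kcng2, another silent modifier subunit, was the single voltage-gated pore subunit to rise, from 11.05, 11.07 and 11.18 to 11.38, 11.34 and 11.29. The groups did not overlap, but the difference of 0.23 ± 0.07 was small (adjusted p = 0.0317). It was not called after repeated quantile normalization or median centring, nor when replicate 1 or 2 of either group was left out (0.21, 0.22, 0.21 and 0.23, adjusted p of 0.0795 to 0.104). Kcna1, a shaker-type subunit best known in axons, stood at 7.24, 7.07 and 7.24 against 6.58, 6.89 and 6.98. Its difference was -0.37 ± 0.11 (adjusted p = 0.0331), and a second of its 4 probe sets was called with -0.77. The call was lost when replicate 1 or 3 of the wild-type or replicate 1 or 2 of the caAkt group was left out (-0.34, -0.34, -0.25 and -0.40, adjusted p of 0.0618 to 0.0964).

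The transient outward current of the mouse ventricle, which sets early repolarisation, uses the pore subunits Kcnd2 and Kcnd3 and the accessory calcium-binding protein Kcnip2. Kcnip2 fell strongly in caAkt hearts, Kcnd2 was not called, and Kcnd3 was near the threshold, called or not by the settings. Its promoter is shown because it carries the largest fall among the accessory subunits: 250 bases before the RefSeq start at chr19:45816064-45816313 (GRCm38.p6), minus strand, 5′ to 3′, with no motif to mark.
Kcnip2: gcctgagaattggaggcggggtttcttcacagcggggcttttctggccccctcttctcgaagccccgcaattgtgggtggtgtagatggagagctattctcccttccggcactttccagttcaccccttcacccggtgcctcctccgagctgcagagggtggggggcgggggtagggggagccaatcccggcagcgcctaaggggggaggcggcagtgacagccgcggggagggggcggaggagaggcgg

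Kcnip2 had signals of 12.05, 12.28 and 12.19 on the wild-type arrays and 10.62, 11.16 and 11.01 on the caAkt arrays. The caAkt values spread over a wider range but all lay below the wild-type values. The log2 fold change was -1.24 ± 0.13 (adjusted p = 0.000134), a 2.37-fold fall. A second probe set gave -1.36 and was called, and the dimmest, at a mean of 6.45, gave -0.06 and was not. Both neighbours of Kcnip2 fell too, Oga by 0.30 and Armh3 by 0.54.

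Kcnd2 stood at 10.31, 9.78 and 9.65 in wild-type and 10.02, 9.64 and 9.71 in caAkt hearts. The groups overlapped, and the difference of -0.12 ± 0.17 had a 95% interval of -0.50 to 0.26 (adjusted p = 0.633), which reaches from a fall to a rise. Kcnd3 stood at 8.20, 8.27 and 8.24 against 7.96, 8.13 and 7.67. Here the groups did not overlap, and the difference of -0.31 ± 0.11 came close to the threshold (adjusted p = 0.0597). A dimmer probe set of Kcnd3 was called with -0.66 ± 0.13 (adjusted p = 0.00631 in the probe-set fit). The brightest one was called too without caAkt replicate 2 (-0.42, adjusted p = 0.0229), with the mean of all probe sets (0.0132), repeated quantile normalization (0.0204), median centring (0.0260), array weights (0.0360) and the replicate block (0.0470). Kcna4, the pore subunit of the slow component, had a mean under 7 and a difference of 0.11 ± 0.11 (adjusted p = 0.475).

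The delayed rectifiers complete repolarisation. Kcnh2, the pore of the rapid component, differed by -0.14 ± 0.11 (adjusted p = 0.398). Kcnq1, the pore of the slow component, differed by -0.30 ± 0.11 (adjusted p = 0.0759), with 9.93, 9.99 and 10.09 in wild-type and 9.94, 9.68 and 9.49 in caAkt hearts; it was called without caAkt replicate 1 (-0.42, adjusted p = 0.0153), with repeated quantile normalization (0.0344), median centring (0.0394) and array weights (0.0459). Kcna5, the pore of an ultrarapid current, stood at 10.07, 10.21 and 9.73 against 8.88, 9.77 and 9.96. Its caAkt replicate 1 was low, the groups overlapped, and the difference of -0.47 ± 0.25 was not called (adjusted p = 0.199). The other pore subunits of this brightness were not called: Kcnh3 (-0.21 ± 0.09, adjusted p = 0.106; called without wild-type replicate 3, -0.28 and 0.0276, and with repeated quantile normalization, 0.0292, median centring, 0.0472, or array weights, 0.0266), Kcnc1 (-0.08 ± 0.09) and Kcna7 (0.05 ± 0.07).

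**Figure D3:**
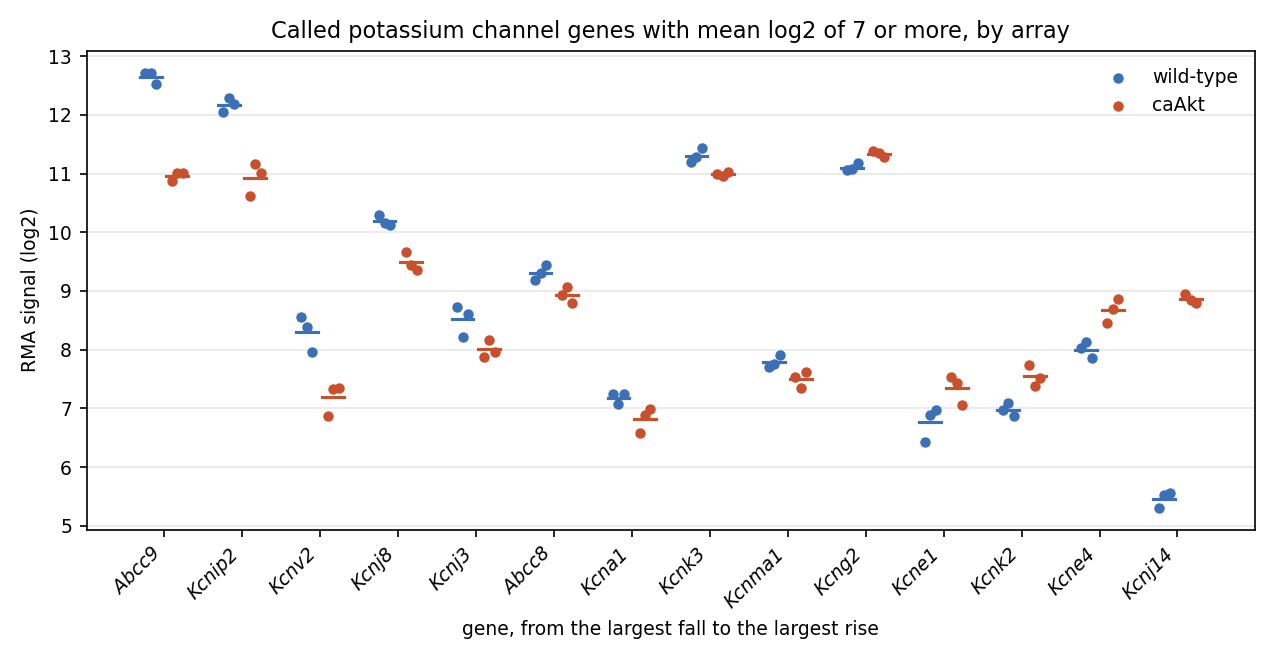
RMA signal (log2, y axis) on each array of the 14 called potassium channel genes with a mean of 7 or more (x axis, from the largest fall to the largest rise); points are arrays, blue for wild-type and red for caAkt, and short bars are the means of 3. In each of the 14 genes the 3 caAkt points lie all below or all above the 3 wild-type points. The genes were picked as called on these same values, so this separation adds no support. The groups did not overlap for 6000 of all 10949 genes this bright.

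Of the 12 accessory subunits, 2 rose and 1 fell (25% called, beside 28.5% of all genes). The fall was that of Kcnip2, and 6 of 12 differences were below 0. The rises were those of Kcne4, which inhibits Kcnq1 and other voltage-gated channels, and Kcne1, which slows Kcnq1 and enlarges its current. With the mean of all probe sets of a gene, 5 were called, beside 2840 of all 18193 genes higher and 2338 lower. Leaving out replicate 1 of either group left 2.

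Kcne4 is the member whose promoter held a searched motif among those shown. The sequence is that at chr1:78816661-78816910 (GRCm38.p6), plus strand, 5′ to 3′, and the capitals mark an E-box that begins 54 bases before the start.
Kcne4: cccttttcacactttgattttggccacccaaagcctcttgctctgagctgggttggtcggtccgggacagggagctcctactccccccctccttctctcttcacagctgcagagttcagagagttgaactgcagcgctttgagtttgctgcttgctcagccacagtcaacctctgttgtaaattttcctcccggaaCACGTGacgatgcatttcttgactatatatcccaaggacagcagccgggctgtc

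Kcne4 had signals of 8.03, 8.12 and 7.85 in wild-type and 8.45, 8.70 and 8.86 in caAkt hearts. The groups did not overlap, and the difference was 0.67 ± 0.11 (adjusted p = 0.00201). Its neighbour Scg2 rose by 1.53, and its neighbour Utp14b was not called (0.01). Kcne1 stood at 6.43, 6.90 and 6.97 against 7.53, 7.44 and 7.06. Wild-type replicate 3 and caAkt replicate 3 lay close together, and the difference was 0.58 ± 0.16 (adjusted p = 0.0241). The second probe set of Kcne1 went the other way (-0.18, adjusted p = 0.188), and the call was lost when wild-type replicate 1 or either of caAkt replicates 1 and 2 was left out (0.41, 0.48 and 0.53, adjusted p of 0.0648 to 0.0990) and with the mean of both probe sets. Rcan1, next to Kcne1 in the genome, rose by 1.21. Kcnip1 and Kcnip3, relatives of Kcnip2, differed by -0.11 ± 0.09 and -0.14 ± 0.09 and were not called, though a pair of dimmer probe sets of Kcnip1 was called lower (-0.24 and -0.34), as was the mean of its probe sets (-0.19, adjusted p = 0.0456).

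The promoter table held 90 promoters of 65 members, among them 13 of the 20 called. Their median GC content was 58.8%, against 52.4% over all 32851 promoters, and the promoters shown stood at 66.8% (Abcc9), 49.2% (Kcnj8), 66.8% (Kcnip2) and 53.2% (Kcne4). Both strands of the 250 bases were searched for each motif on its own, so that a MEF2 motif and a CArG box could overlap. The E-box CACGTG was in 5 of the 90 and in 6.02% of all promoters, and the GATA motif AGATAA in 3 and 9.99%. The MEF2 motif was in 2 and 2.92%. The FoxO motif GTAAACA (3.17% of all), the cAMP response element TGACGTCA (1.55%) and the CArG box (1.47%) were in 0 of the 90. These are matches of letters in this window.

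**Figure D4:**
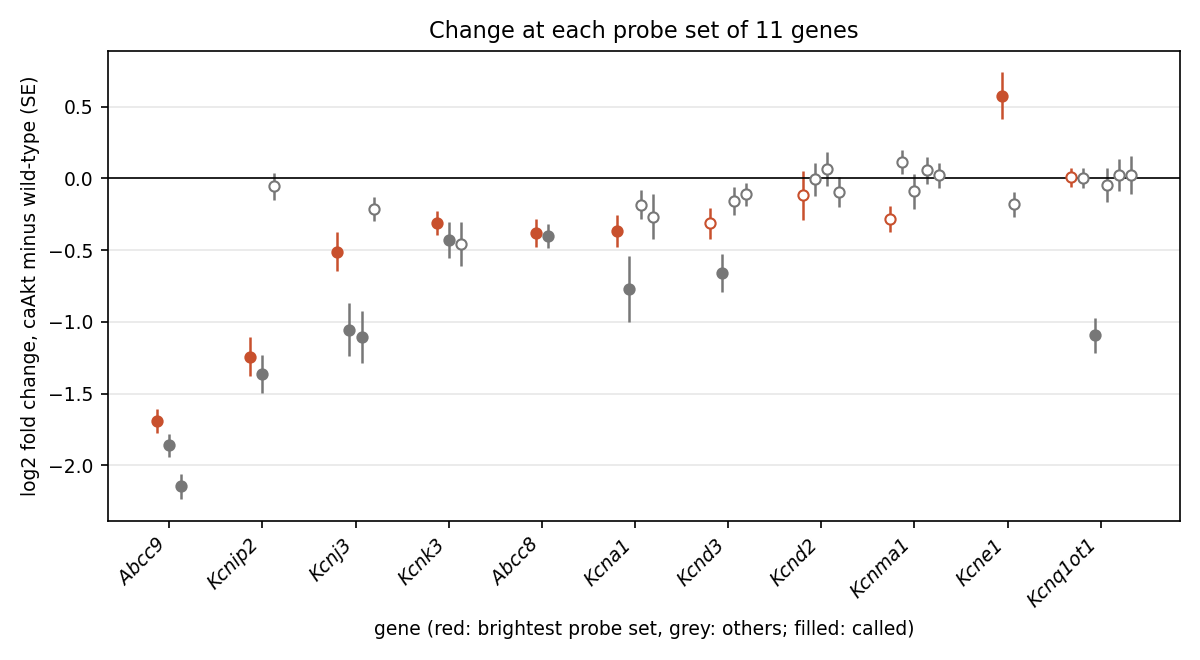
Log2 fold change (caAkt minus wild-type, y axis) with its SE at every probe set of 11 genes (x axis), chosen after their values were seen; red marks the brightest probe set, grey the others, and filled points were called in the probe-set fit. The 3 probe sets of Abcc9 lie together between -1.69 and -2.15, while those of Kcnma1, Kcne1 and Kcnq1ot1 part.

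Of the 12 2-pore channels, 1 rose and 1 fell (16.7% called, beside 28.5% of all genes), with a median of -0.04. Leaving out wild-type replicate 2, caAkt replicate 1 or caAkt replicate 2 left 1 call. Kcnk2, a stretch-activated background channel, rose from 6.97, 7.08 and 6.86 to 7.74, 7.39 and 7.53. The groups did not overlap, and the difference was 0.58 ± 0.10 (adjusted p = 0.00253). Kcnk3, an acid-sensitive background channel, had signals of 11.19, 11.28 and 11.44 in wild-type and 11.00, 10.95 and 11.03 in caAkt hearts. All caAkt values were lower, by a small margin, with a difference of -0.31 ± 0.08 (adjusted p = 0.0180) and with -0.43 (called) and -0.46 (adjusted p = 0.0642) at its other probe sets. With wild-type replicate 2 or either of caAkt replicates 1 and 2 left out, the adjusted p of Kcnk3 was 0.0504 to 0.0643 (-0.32, -0.31 and -0.29). The call of Kcnk2 held without each array. Kcnk6 was not called (0.23 ± 0.10, adjusted p = 0.130).

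Of the 11 calcium- and sodium-activated channel genes, 1 rose and 2 fell (27.3% called, beside 28.5% of all genes), with a median of -0.06. The number called went from 1 without caAkt replicate 1 to 5 with median centring, where 31.6% of all genes were called. It was 2 when wild-type replicate 2, wild-type replicate 3 or caAkt replicate 2 was left out. Kcnma1, the pore of the large-conductance channel, stood at 7.70, 7.75 and 7.91 against 7.54, 7.35 and 7.62. The groups were separated by a narrow gap, and the difference was -0.28 ± 0.09 (adjusted p = 0.0463). The other 4 probe sets, at means of 3.51 to 4.29, gave -0.09 to 0.12, and with the mean of all probe sets, or with every probe set as a row, the call was lost. It was lost too without any wild-type replicate (-0.33, -0.30 and -0.22 for replicates 1 to 3) and without caAkt replicate 1 or 2 (-0.30 and -0.21), with adjusted p of 0.0532 to 0.150. The small-conductance subunits Kcnn1 (-0.06 ± 0.07) and Kcnn2 (-0.01 ± 0.08, 95% interval -0.19 to 0.16) were not called.

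Kcnn4, the intermediate-conductance channel known from blood cells and fibroblasts, stood at 7.23, 7.38 and 7.38 against 7.58, 7.73 and 7.41. Its groups did not overlap, and its difference of 0.24 ± 0.09 was not called (adjusted p = 0.0854), except without caAkt replicate 3 (0.32, adjusted p = 0.0378) and with the mean of its probe sets (0.29, adjusted p = 0.0157). Its second, dimmer probe set was called with 0.34 ± 0.07 (adjusted p = 0.00822 in the probe-set fit). Macrophage and fibroblast markers rose on the same arrays, as given above, and their part in Kcnn4 was not tested.

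**Figure D5:**
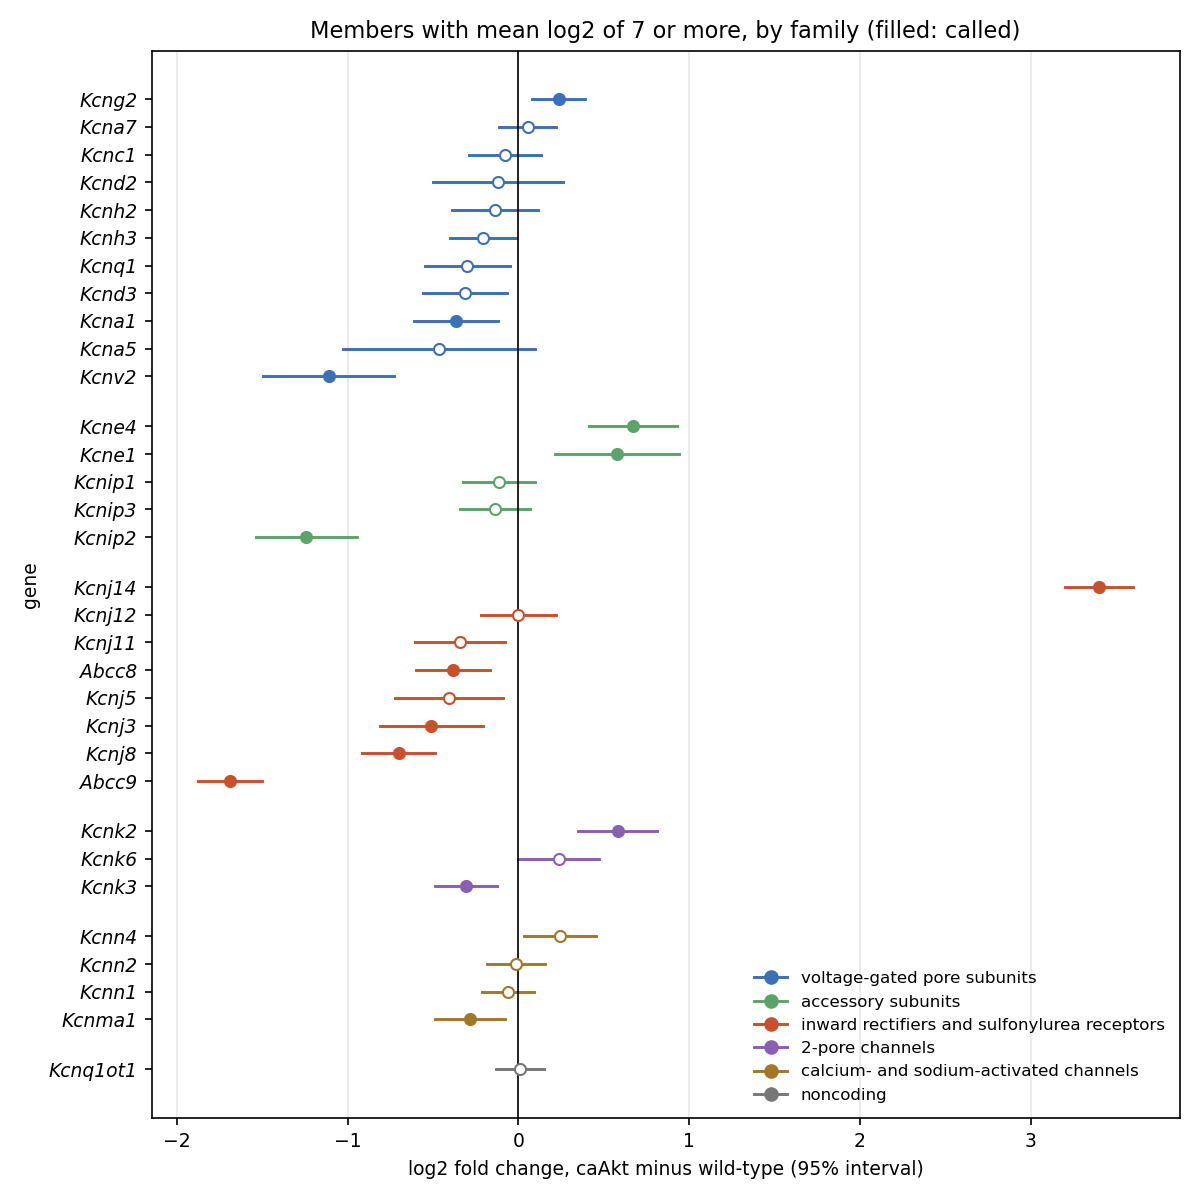
Log2 fold change (caAkt minus wild-type, x axis) with its 95% interval for the 32 potassium channel genes with a mean of 7 or more, by channel family (y axis and colours); filled points were called. In the inward rectifier family Kcnj14 lies at 3.40, Kcnj12 at 0.00 and the other 6 below 0.

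Of the 54 dimmer members, 1 rose and 5 fell, and 27 of all 86 members lay at or under the 6.05 that marks dim signal. Kcnt2, a sodium-activated channel subunit, rose from 6.65, 6.56 and 6.43 to 6.90, 7.33 and 7.30. The groups did not overlap, and the difference of 0.63 ± 0.12 (adjusted p = 0.00349) stayed called without each array. Kcnq5, a relative of the neuronal M-current subunits, stood at 5.44, 5.22 and 5.08 against 4.79, 4.99 and 4.72. Kcnmb2, an accessory subunit of the large-conductance channel, stood at 5.90, 6.18 and 5.89 against 5.54, 5.65 and 5.64, and Kcnc2, a fast delayed rectifier of neurons, at 4.34, 4.43 and 4.35 against 3.89, 4.13 and 4.12. In these last 3 genes every caAkt value was below every wild-type value.

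The differences were -0.41 ± 0.11 for Kcnq5 (adjusted p = 0.0189), -0.38 ± 0.09 for Kcnmb2 (0.0126), -0.33 ± 0.08 for Kcnc2 (0.0169) and -0.21 ± 0.06 for Kcnh8, an ether-à-go-go-like pore subunit (0.0335). All 4 had means under the 6.05 that marks dim signal, and the genes of other organs behind that mark had a median difference of -0.19 themselves (list means 6.10 to 6.19 against 5.94 to 6.04, 1 of 10 called lower). Each of these 4 calls was lost on leaving out at least 1 array. Kcnq5 was not called when replicate 1 or 2 of the wild-type or replicate 1 or 3 of the caAkt group was left out (-0.31, -0.43, -0.39 and -0.35, adjusted p of 0.0505 to 0.0765). Kcnmb2 was not called without caAkt replicate 1 (-0.34, adjusted p = 0.0523) or with plain probe sets, nor Kcnc2 without wild-type replicate 2 (-0.30, adjusted p = 0.0689). Kcnh8 was not called whichever of the wild-type or caAkt replicates 1, 2 and 3 was left out (-0.23 to -0.20, adjusted p of 0.0554 to 0.108), nor after repeated quantile normalization. The other 48 dimmer members were not called.

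Partners and regulators of potassium channels were measured for 32 of 34 listed genes: 4 rose and 9 fell (40.6% called, beside 28.5% of all genes and 39.8% of those with a mean of 7 or more), with a median of -0.12. Klf15, a transcription factor known to control Kcnip2, fell by 1.38 ± 0.15 (adjusted p = 0.000190). Rnf207, a ubiquitin ligase that acts on Kcnh2 channels, fell by 1.17 ± 0.09 (adjusted p = 2.14e-05), and the transcription factor Mitf by 0.95 ± 0.09 (9.52e-05). Cttn, the actin-binding protein cortactin, rose by 0.85 ± 0.08 (8.84e-05). Potassium pumps and cotransporters were measured for 14 of 18 genes, of which 6 rose and 2 fell, with a median of 0.11. The share called was 57.1%, beside 28.5% of all genes and 39.8% of those with a mean of 7 or more. Among the rises were Fxyd5 (1.11 ± 0.09) and Fxyd6 (1.08 ± 0.12), regulators of the sodium-potassium pump, its beta subunit Atp1b1 (0.58 ± 0.10), and Tmem38b (0.83 ± 0.07), a potassium channel of the sarcoplasmic reticulum. The falls were those of its relative Tmem38a (-0.43 ± 0.10, adjusted p = 0.00861) and of Atp1b2 (-0.35 ± 0.07, adjusted p = 0.00655). The 3 alpha subunits of the pump were not analysed here.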

How the data were processed

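The deposited log2 values were made by the authors with RMA and affy, per the submitters' processing notes, which give no versions in the sources used here. RMA includes quantile normalization, so each value is relative to the bulk of its array, and signals of different probe sets cannot be compared as amounts. Gene symbols come from the 2016 annotation of the platform, and all 86 members matched the RefSeq gene table (GRCm38.p6) by identifier. Probe sets with several symbols or none were left out, and no filter on dim signal was used.

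The 3 caAkt and 3 wild-type arrays were compared with limma 3.58.1 (R 4.3.3; lmFit, eBayes, two-sided, genotype as the term, 4 residual degrees of freedom) with 1 probe set for each of 18193 genes and Benjamini-Hochberg adjustment. Other probe sets come from a fit of all of them. Errors of differences are moderated SEs. The number of arrays limits the precision. The fit was tested on simulated data.

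The members, gene lists and tests were chosen with earlier results of these data known. Named are all members with a mean of 7 or more, all called members, a fixed set of cardiac channel genes, and up to 4 genes with the smallest p of each further list. Genomic neighbours, single marker genes, other probe sets, Tmem38a and Atp1b2 were added after their values were seen. The alternatives were other eBayes settings, other probe set rules, a filter on dim signal, other scalings, array weights, a replicate block, omission of single arrays and a stricter threshold (0.01).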

Additional observations from a re-analysis of the deposited data

How the results depend on the processing

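Of the 20 calls, 8 held without each array, and 14 held in every other fit at a threshold of 0.05 that gave a value. The calls shared with the reported fit were 18 after repeated quantile normalization, 19 with median centring and 19 with array weights; the quantile and centring steps moved the median of all genes by 0.00 and -0.05. Members called lower were 24 with median centring, 22 with array weights, 4 at a threshold of 0.01 and 8 to 11 with an array left out. Of all 18193 genes, 3191, 2967, 1270 and 1615 to 2222 were lower in the same fits, beside 2254 in the reported fit. Members called higher were 4 to 7 with an array left out, beside 2369 to 2605 of all genes. For the brighter members, 14 were lower after either scaling and 4 at 0.01 (6 to 8 with an array left out), and 3 were higher at 0.01 (3 to 6 with an array left out). At 0.01, the calls were 1 of the voltage-gated pore subunits, 3 of the inward rectifiers, 1 of the 2-pore channels and 1 of the calcium- and sodium-activated channels. With an array left out they were 2 to 5, 3 to 7, 1 to 2 and 1 to 4, and 2 to 3 for the accessory subunits. Median centring and array weights each gave 10 voltage-gated and 5 calcium- and sodium-activated calls, the mean of all probe sets 5 accessory calls, and plain probe sets 1 calcium- and sodium-activated call. With plain probe sets alone, another probe set stood for Kcnma1 and its difference was 0.12 (adjusted p = 0.340). Of 19 named genes not called, 7 were called in some fit.

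With the replicate number as a block, 6 members were called higher and 15 lower, and Kcng2 and Kcnh8 were not. Same-numbered arrays had correlations of their deviations from the group means of 0.27, 0.03 and -0.12. The labels do not say whether the numbers pair the samples, and correlations from so few arrays cannot settle it. Signal limits the dimmer members and some of those with a mean of 7 or more: 21 of 86 lay above the highest of the genes of other organs (7.70). Under it were the called Kcnma1 (7.65), Kcnk2 (7.26), Kcnj14 (7.17), Kcne1 (7.05), Kcna1 (7.002) and, among the dimmer members, Kcnt2 (6.86). The uncalled Kcnip1, Kcnn1, Kcnn2, Kcnn4, Kcnc1 and Kcnj12 lay under it too, though their means were 7 or more.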

Other observations

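Kcnq1ot1, a noncoding transcript from the imprinted region of Kcnq1, had 6 probe sets. The brightest was at 8.83, 8.82 and 8.83 in wild-type and 8.83, 8.83 and 8.84 in caAkt hearts, and its difference of 0.01 ± 0.06 was not called (adjusted p = 0.948). Another, with a mean of 7.94, fell from 8.49 to 7.40, by 1.09 ± 0.12 (adjusted p = 0.000282, limma with every probe set as a row), and the remaining ones gave -0.05 to 0.02. Which part of the transcript each covers was not analysed here.

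The neighbouring genes of other called members also included called ones. Cenpf, beside Kcnk2, fell by 1.42, Slc66a2, beside Kcng2, fell by 0.30, and Dlg5, beside Kcnma1, rose by 0.74. Slc35f6, beside Kcnk3, rose by 0.58, and Zmat3, beside Kcnmb2, rose by 0.80. Both neighbours of Kcnj3, Galnt13 (-0.11) and Nr4a2 (0.00), were not called. The same held for both measured neighbours of Kcnh8 (Satb1, Efhb), Kcnc2 (Caps2, Atxn7l3b), Kcnq5 (Khdc1b, Rims1) and Kcna1 (Kcna5, Kcna6). Also not called were Ctdp1 (beside Kcng2), Cib4 (Kcnk3), Lrmda (Kcnma1), Slc7a14 (Kcnmb2), Cdc73 (Kcnt2), Ush1c (Abcc8) and Kcnj16 (Kcnj2). Over all genes 28.5% were called, and 39.8% of those with a mean of 7 or more.

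Kcnk10, a 2-pore channel with a mean of 6.19, was not called at its brightest probe set (-0.18 ± 0.07, adjusted p = 0.101) and was called at its second (-0.36 ± 0.08, adjusted p = 0.0134 in the fit with a row per probe set). Kcnab2, an accessory subunit, had the same signal of 6.92 on the 3 caAkt arrays, and Kcnn3, a small-conductance subunit, the same signal of 6.67 on the 3 wild-type arrays.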
